A study of Mus musculus with 18 samples.

Results

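The 9 genes described here, Tmem119, Cx3cr1, Fcrls, Selplg, Olfml3, Sparc, Slc2a5, Crybb1 and Aif1, are a core set of homeostatic microglial genes and were taken by symbol from the 55536 genes of the count table. The rule uses no measured value, but the list was drawn up with earlier results of these data known. Messenger RNA was sequenced from CD11b-sorted striatal microglia of 18 C57BL/6 mice (C57Bl6/J in the methods) in a design that crossed the Q175 allele with loss of Tyrobp. There were 5 WT libraries, 3 Tyrobp-KO libraries, 5 Q175 libraries and 5 Q175;Tyrobp-KO libraries. Q175 mice carry the human HTT first exon with an expanded CAG repeat at the endogenous Htt locus and were heterozygous, and in the Tyrobp-KO mice Tyrobp is absent from every cell that would express it, from birth. Females made up 1 of 5 WT, 2 of 3 Tyrobp-KO, 4 of 5 Q175 and 2 of 5 Q175;Tyrobp-KO mice. The age of these mice at sorting is not given in the sources used here.

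Microglia, the resident macrophages of the brain, hold a characteristic transcriptional state in the healthy tissue. That state depends on signals from the surrounding cells, such as TGF-beta and the neuronal chemokine fractalkine, and it is partly lost when microglia react to damage. Tyrobp, also known as DAP12, is the adaptor through which TREM2 and related surface receptors signal, and it has been placed upstream of the shift from the homeostatic to the disease-associated state. The comparisons below ask whether the Q175 allele or the Tyrobp deletion altered the homeostatic genes, each with and without the other. The double mutant was not compared with WT.

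The members fall into several roles. Tmem119 is a transmembrane protein widely used to tell microglia from other macrophages, Cx3cr1 is the receptor for fractalkine, Fcrls is an Fc receptor-like scavenger protein, Selplg encodes PSGL-1, the ligand of P-selectin, and Slc2a5 is the fructose transporter GLUT5. Olfml3 and Sparc are secreted, Olfml3 as an olfactomedin-like protein and Sparc as a matricellular glycoprotein that endothelial cells and other glia also make. Crybb1 and Aif1 are neither on the cell surface nor secreted. Crybb1 is a beta-crystallin first known from the lens, and Aif1, whose protein is called Iba1, binds calcium and actin in the cytoplasm and is the usual antigen for staining microglia.

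In GRCm38 coordinates of the GENCODE M21 annotation, all 9 are protein-coding. Tmem119 (ENSMUSG00000054675) lies at chr5:113793729-113800516 on the minus strand, and Selplg (ENSMUSG00000048163) follows at chr5:113818536-113832644 on the same strand. These neighbours are 18019 bp apart with 1 gene, Gm19931, between them. Crybb1 (ENSMUSG00000029343) is on the plus strand at chr5:112255815-112269585, 1.52 Mb from Tmem119. Fcrls (ENSMUSG00000015852) at chr3:87250758-87263738 and Olfml3 (ENSMUSG00000027848) at chr3:103722222-103738001 share a chromosome at a distance of 16.46 Mb. Cx3cr1 (ENSMUSG00000052336) at chr9:119901616-120069879, Sparc (ENSMUSG00000018593) at chr11:55394500-55423183 and Aif1 (ENSMUSG00000024397) at chr17:35170991-35176068 are on the minus strand, and Slc2a5 (ENSMUSG00000028976) at chr4:150119283-150144169 is on the plus strand. Cx3cr1 is the only member whose span overlaps other genes (9 of them), and its exons share 78 bp, 1.73% of their length, with Gm33858, an antisense gene. Because the libraries were not directional, reads from those 78 bp cannot be assigned to either gene.

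Promoter sequences from RefSeq (GRCm38.p6, 250 bases before to 50 after the start of the transcript) were matched for 7 of the 9 members, and 3 are printed here because Fcrls and Slc2a5 varied together across libraries whereas Aif1 did not. Capitals mark matches to a PU.1-type ETS motif, a TATA box or a GC box, whose letters are given with their counts after the sequences and which were searched on both strands. The first is on the minus strand at chr3:87263475-87263774, the second on the plus strand at chr4:150119094-150119393 and the third on the minus strand at chr17:35176003-35176302.
Fcrls: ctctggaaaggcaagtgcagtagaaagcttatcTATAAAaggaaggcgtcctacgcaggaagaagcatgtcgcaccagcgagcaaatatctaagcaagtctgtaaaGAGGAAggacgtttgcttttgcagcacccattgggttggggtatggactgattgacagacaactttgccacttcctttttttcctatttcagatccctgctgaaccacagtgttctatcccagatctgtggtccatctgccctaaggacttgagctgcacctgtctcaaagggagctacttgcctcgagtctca
Slc2a5: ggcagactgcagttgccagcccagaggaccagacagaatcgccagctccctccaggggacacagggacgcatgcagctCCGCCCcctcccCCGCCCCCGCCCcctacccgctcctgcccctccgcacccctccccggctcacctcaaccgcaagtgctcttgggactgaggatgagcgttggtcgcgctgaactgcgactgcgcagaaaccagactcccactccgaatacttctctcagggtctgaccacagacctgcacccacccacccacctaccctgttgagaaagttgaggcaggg
Aif1: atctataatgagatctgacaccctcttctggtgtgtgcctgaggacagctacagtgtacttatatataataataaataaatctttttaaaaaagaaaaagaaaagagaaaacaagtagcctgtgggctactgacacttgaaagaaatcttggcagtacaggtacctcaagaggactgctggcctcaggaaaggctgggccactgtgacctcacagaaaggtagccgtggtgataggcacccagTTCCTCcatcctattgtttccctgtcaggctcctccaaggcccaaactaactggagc

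The ETS motif, GAGGAA, was found in 2 of the 7 member promoters (Fcrls and Aif1) and in 28.3% of all 32851 promoters. The letters of the TATA box, TATAAA, were found in 2 (Fcrls and Crybb1), against 13.6% of all promoters. The match begins at -217 from the start of the transcript in Fcrls and at -30 in Crybb1. Whether either works as a TATA box was not tested. The GC box, GGGCGG, was found in 2 (Olfml3 and Slc2a5), against 35.7%, and 2 of its 3 matches in Slc2a5 adjoin each other. The GC content of the window was 48% for Fcrls, 65.3% for Slc2a5 and 45% for Aif1.

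Total counts ranged from 11260410 to 29771983 reads per library, with 0.221% to 1.03% of them in the 9 members. Tyrobp averaged 6503 ± 2343 normalised read counts in WT (SD, n = 5) and 5238 ± 1042 in Q175 (n = 5), but 361 ± 35.6 in Tyrobp-KO (n = 3) and 240.0 ± 34.8 in Q175;Tyrobp-KO (n = 5), so the deposited labels and the deleted gene matched in every library. Normalised read counts are the reads of a gene scaled by edgeR's TMM library factors. The 4 libraries with the lowest TMM factors, 0.788 to 0.903, were Tyrobp-KO replicate 20, Q175 replicate 14, WT replicate 6 and Q175 replicate 4, and the other 14 had factors of 0.951 to 1.13. Gm26917 and Gm42418, gene models that collect reads of ribosomal RNA, took 22.8% to 29.5% of reads in these 4 and 11.7% to 24.8% in the others, and mitochondrial genes took 7.26% in Q175 replicate 14 and 6.12% in Tyrobp-KO replicate 20, against 2.83% or less elsewhere. Medians of the members in the genotype comparisons and several of the correlations are therefore also given without these 4 libraries. Levels, fold changes of the other gene lists and sex differences are not.

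All 9 members were well detected, and every one passed the expression filter in every comparison. Mean normalised counts over the 18 libraries ran from 1411 for Crybb1 to 34503 for Cx3cr1, which placed Cx3cr1 20th, Tmem119 49th and Selplg 52nd among 18613 expressed genes. Slc2a5 was 445th, Aif1 1630th and Crybb1 2494th. The lowest raw count of any member in any library was 447 reads, for Crybb1.

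Per kilobase of exon, the mean level over 18 libraries was highest for Tmem119 (8181 ± 3053 normalised counts per kilobase, SD), followed by Cx3cr1 (7659 ± 3314), Fcrls (6364 ± 1220), Selplg (4251 ± 1592), Sparc (3400.0 ± 1181) and Olfml3 (1989 ± 520). Crybb1 (1433 ± 489), Aif1 (1274 ± 273) and Slc2a5 (1252 ± 349) formed the lower end. Several neighbours in this order were not separated within libraries: Tmem119 was above Cx3cr1 in 8 of 18 libraries, Cx3cr1 above Fcrls in 11, Crybb1 above Aif1 in 12 and Aif1 above Slc2a5 in 7. By contrast Fcrls was above Selplg, Selplg above Sparc and Sparc above Olfml3 in 18 of 18 libraries, and Olfml3 was above Crybb1 in 17. The order also rested on the gene length used, because Selplg has 4272 bp of exon in all but 2314 bp in its longest transcript, and it ranked 2nd rather than 4th when the latter was used. With coding length alone, Cx3cr1 ranked 1st, Tmem119 2nd and Fcrls 6th.

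**Figure D1:**
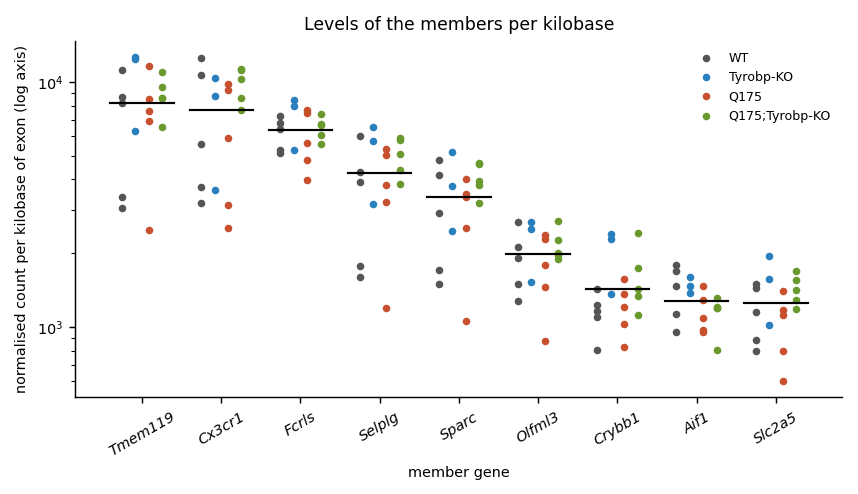
Normalised read count per kilobase of exon (log axis) for each member, 1 point per library, coloured by genotype, with black lines at the mean of 18 libraries. The means run from 8181 for Tmem119 to 1252 for Slc2a5.

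The spread between mice of the same genotype was wide for most members. Tmem119 counted 7853, 18956, 7063, 25968 and 20125 in WT mice (replicates 1, 2, 6, 7 and 8). It counted 29227, 28644 and 14608 in Tyrobp-KO replicates 15, 19 and 20. In Q175 replicates 3, 4, 9, 14 and 17 it counted 19770, 5778, 16026, 17566 and 26914, and in Q175;Tyrobp-KO replicates 5, 11, 12, 13 and 16 it counted 15113, 19965, 19912, 25432 and 21969. WT replicates 1 and 6 and Q175 replicate 4 were thus well below every other library, while the 4 genotypes overlapped.

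Cx3cr1 had the widest range on the count scale. It counted 16801, 24999, 14429, 48103 and 56260 in WT, 39255, 46728 and 16271 in Tyrobp-KO, 43998, 11362, 41707, 14125 and 26624 in Q175, and 34546, 46078, 38730, 50204 and 50830 in Q175;Tyrobp-KO, in the same replicate order. Low libraries occurred in WT, Tyrobp-KO and Q175, whereas the lowest of the 5 double-mutant libraries held 34546.

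Selplg, Sparc and Olfml3 were low in the same libraries, WT replicates 1 and 6 and Q175 replicate 4, with Q175 replicate 14 also low for Olfml3. Selplg ranged from 6819 to 25610 in WT, 13584 to 27980 in Tyrobp-KO, 5105 to 22642 in Q175 and 16342 to 25180 in Q175;Tyrobp-KO. Sparc ranged from 5652 to 18089, 9340 to 19660, 4006 to 15209 and 12110 to 17724, and Olfml3 from 7842 to 16579, 9416 to 16439, 5398 to 14584 and 11697 to 16684, in that order of genotypes. Q175 replicate 4 was the lowest of all 18 libraries for each of these secreted or surface genes, as it was for Tmem119, Cx3cr1, Fcrls and Slc2a5. Fcrls was the steadiest of the 9 genes on the log2 scale, with 9278 to 19698 counts over all libraries, a range of 2.12-fold.

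**Figure D2:**
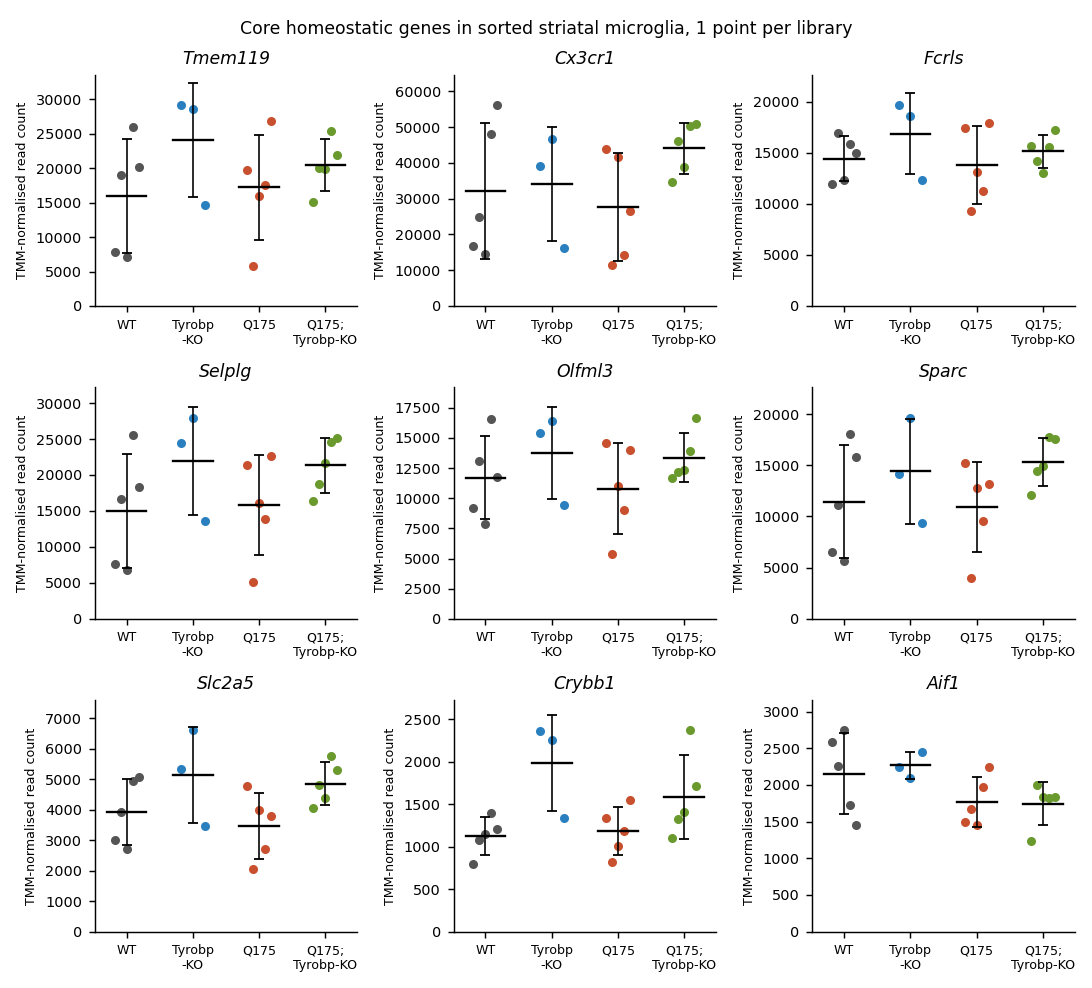
TMM-normalised read count of each member on a linear axis starting at 0, 1 point per library, by genotype, with the mean and SD of each group in black. Tmem119, Selplg and Sparc share low points in WT replicates 1 and 6 and Q175 replicate 4, and Aif1 does not.

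Except for Aif1, the members varied together between libraries. Over 18 libraries, the log2 normalised counts of the 8 others correlated pairwise with r between 0.58 (Cx3cr1 with Crybb1) and 0.98 (Tmem119 with Selplg), in 28 pairs. Correlated with the mean of the other 8 members, Selplg had a Pearson's r of 0.97 and a Spearman's rho of 0.96, Sparc 0.96 and 0.89, Olfml3 0.95 and 0.93, Slc2a5 0.95 and 0.91, and Tmem119 0.93 and 0.92. Fcrls (r = 0.85), Cx3cr1 (0.82) and Crybb1 (0.78) came next. Aif1 had an r of -0.24 and a rho of -0.22, and its pairwise values ran from -0.49 with Cx3cr1 to 0.10 with Crybb1. These are descriptions, with no test, since the points share each library's scaling and quality.

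The genotype means did not carry this pattern. With each genotype's mean subtracted, r with the mean of the other members was 0.97 for Selplg, 0.94 for Tmem119, 0.84 for Cx3cr1 and -0.34 for Aif1. Without the 4 libraries of lowest TMM factor it was 0.95 for Selplg, 0.93 for Tmem119, 0.65 for Cx3cr1 and -0.15 for Aif1 over 14 libraries. Those 4 libraries were all among the 6 lowest for Cx3cr1, Fcrls, Selplg, Olfml3, Sparc and Slc2a5, and 3 of them were for Tmem119, 2 for Crybb1 and 1 for Aif1. A low factor did not always go with low members and the reverse: WT replicate 1, with a factor of 0.954, held 0.341% of its reads in the members, and Q175 replicate 3, with a factor of 0.951, held 0.719%. The part of library quality in the pattern was not tested.

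**Figure D3:**
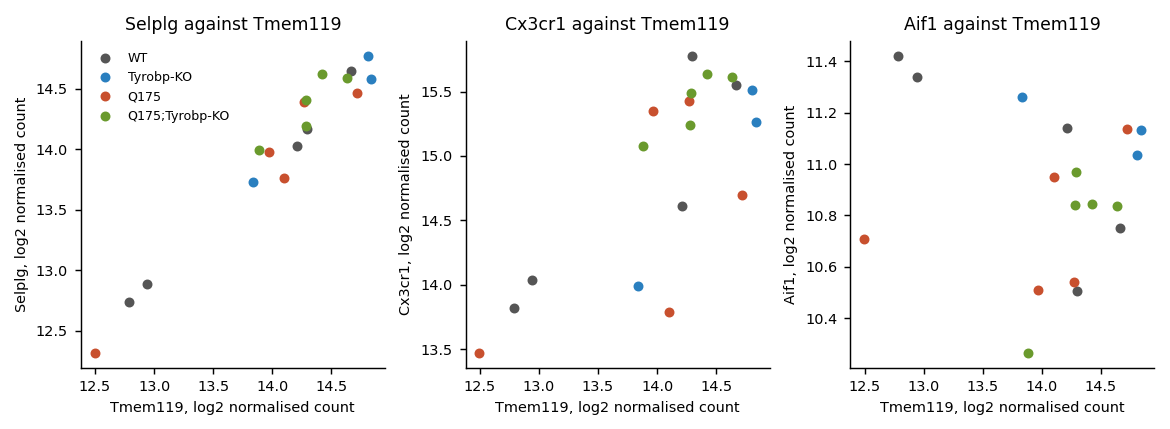
Log2 normalised counts of Selplg, Cx3cr1 and Aif1 (y axes) against Tmem119 (x axes), 1 point per library, coloured by genotype. Selplg follows Tmem119 across genotypes (r = 0.98 over 18 libraries), Cx3cr1 follows it more loosely (r = 0.77), and Aif1 does not (r = -0.17).

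Tmem119 and Selplg, the neighbours on chromosome 5, had the highest pairwise r (0.979). Selplg and Sparc, which is on chromosome 11, were nearly as close (0.977). The difference between Tmem119 and Selplg in log2 normalised count averaged 0.066 ± 0.15 (SD, n = 18). It stayed between -0.20 and 0.34 while each gene ranged over more than 2.3 on that scale. The difference between Cx3cr1 and Aif1 ranged from 2.39 in WT replicate 6 to 5.27 in WT replicate 8, so the ratio of this pair of common microglial markers varied widely within WT. Its means were 3.73 ± 1.27 in WT, 3.78 ± 0.92 in Tyrobp-KO, 3.78 ± 1.04 in Q175 and 4.66 ± 0.19 in Q175;Tyrobp-KO (SD).

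Among 11839 genes with a mean of at least 100 normalised counts, the 5 that were most like the mean log2 level of the members over 18 libraries were Lrrc3 (r = 0.987), Abhd12 (0.986), Tcn2 (0.986), Was (0.984) and Ralb (0.979). Lrrc3 encodes a leucine-rich repeat protein, Abhd12 a lysophosphatidylserine lipase, Tcn2 the vitamin B12 carrier transcobalamin, Was an actin regulator of blood cells and Ralb a small GTPase. In all, 231 of these genes (1.95%) had an r of at least 0.9, and the median gene had an r of -0.0596. Without the 4 libraries of lowest TMM factor, the 5 named genes had r between 0.94 and 0.97.

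The other homeostatic genes did not move as a block with the members. Of 22 listed, 15 had an r above 0 with the members' mean. Vsir, an immune checkpoint receptor (r = 0.97), Itgam, which encodes the CD11b antigen used for sorting (0.96), and Csf1r, the receptor for the growth factor on which microglia depend (0.94), followed the members. Gpr34, a lysophosphatidylserine receptor (-0.61), Cst3, cystatin C (-0.36), and P2ry12, the purinergic receptor of resting microglia (-0.26), did not. Without the 4 libraries of lowest TMM factor, r was 0.93 for Vsir, 0.93 for Itgam and 0.86 for Csf1r. It was then -0.32 for Gpr34, -0.20 for Cst3 and -0.24 for P2ry12. Itgam ran from 707 to 3469 normalised counts and Csf1r from 19288 to 77275, and in both Q175 replicate 4 was the lowest library. In WT replicate 6, Cst3 (217315 normalised counts) was the highest of 18 libraries, whereas Tmem119 was the second lowest. P2ry12 counted 50152 and 48008 normalised reads in WT replicates 1 and 6, and 31525 in Q175 replicate 4. Its median over 18 libraries was 32294. Whether fewer microglia or less RNA of a gene per cell lay behind the low libraries was not tested in these bulk samples.

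**Figure D4:**
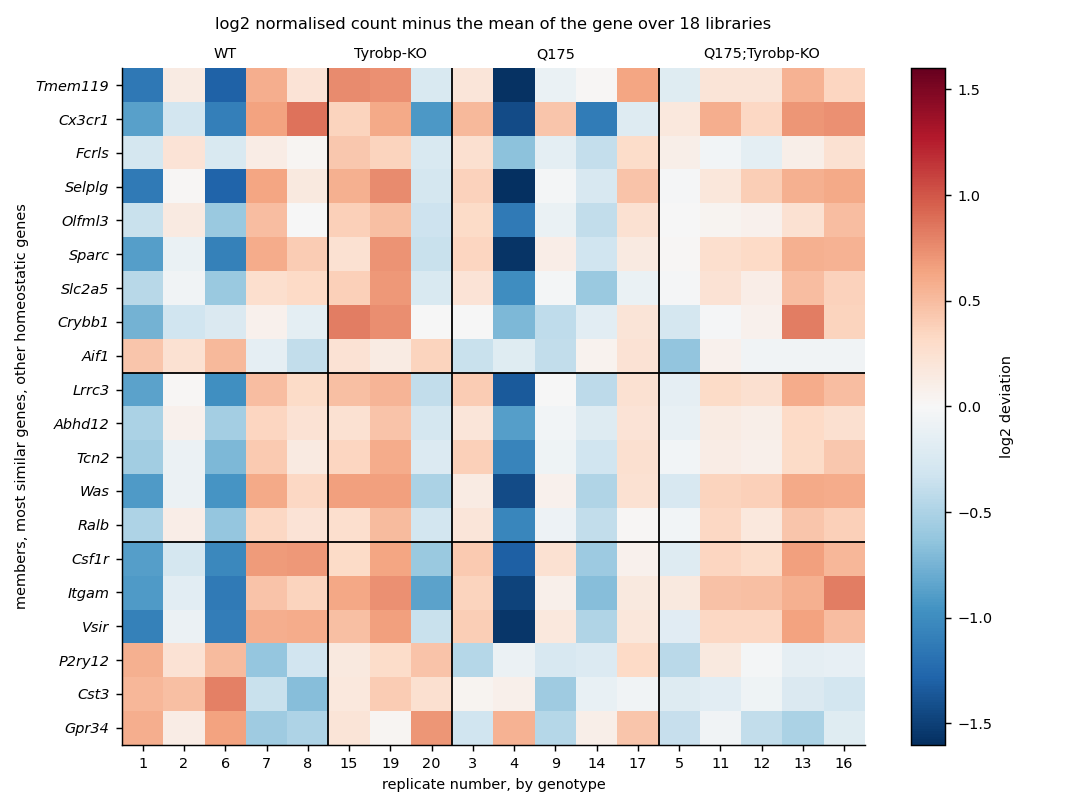
Log2 normalised count minus each gene's mean over 18 libraries (colour scale from -1.6, blue, to 1.6, red), for the 9 members, the 5 most similar genes and 6 other homeostatic genes, by genotype and replicate. WT replicates 1 and 6 and Q175 replicate 4 are blue for Tmem119, Selplg and Sparc and for Csf1r and Itgam, and the WT pair is red for Cst3, P2ry12 and Aif1.

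Markers of other cells were present in every library and are given beside the members because Sparc is also made outside microglia. The summed level of 15 astrocyte markers ran from 16552 to 27583 normalised counts in WT, 16807 to 96719 in Tyrobp-KO, 30351 to 137386 in Q175 and 16783 to 78392 in Q175;Tyrobp-KO. For 10 endothelial markers the sums ran from 898 to 2058, 1006 to 2091, 897 to 1141 and 723 to 1093, and for 8 markers of oligodendrocyte precursors from 2236 to 3025, 2279 to 3781, 2705 to 4341 and 1869 to 4681. None of these 33 markers was at 0 in any library. Border-associated macrophage markers summed to 131 to 636 counts over all libraries, with Pf4 and Lyve1 at 0 in some of them. The astrocyte sum was higher in each Q175 library than in any WT library. A fit with a score of such markers is described below. For Q175 against WT it cannot tell their part in the member values from genotype.

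For Q175 against WT, none of the 9 members passed the test. Across all genes, edgeR's quasi-likelihood test at a Benjamini-Hochberg adjusted p of 0.1 called 0 of 18266 (0.0%), 6.24% were under an unadjusted p of 0.05, and DESeq2 called 1.28% but 0 members. The log2 fold changes of the members lay between -0.25 (Aif1) and 0.14 (Tmem119), with a median of -0.034 beside -0.022 for all genes. Tmem119 averaged 15993 ± 8236 normalised counts in WT and 17211 ± 7631 in Q175 (SD, n = 5 each), with a 95% interval of the fold change from 0.578 to 2.10. For Cx3cr1 the interval was 0.436-fold to 1.74-fold around 0.872. Fcrls, which varied least over all 18 libraries, had an interval from -0.53 to 0.46 on the log2 scale. The intervals of Crybb1 (-0.36 to 0.56) and Aif1 (-0.71 to 0.21) were slightly narrower. No member separated the genotypes, where 1.09% of all genes did. The intervals of Tmem119 and Cx3cr1 thus included a 2-fold difference in at least 1 direction.

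The direction was not settled for most members. Leaving out Q175 replicate 4 moved the median to 0.093 and leaving out Q175 replicate 17 moved it to -0.18. With sex as a term all 9 were lower in Q175. With a score of astrocyte, neuronal and oligodendrocyte markers in the fit, 6 of 9 were higher. That score ran from -0.75 to -0.30 in WT and from -0.073 to 1.48 in Q175. Because it did not overlap between the groups, this fit cannot tell marker content from genotype. Without the 4 libraries of lowest TMM factor, 7 of 9 were higher and the median was 0.11.

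Tyrobp deletion on the Q175 background (Q175;Tyrobp-KO against Q175) left 8 of 9 members with higher means, and none passed the test. edgeR called 2 of 18059 genes (0.0111%), 8.01% were under an unadjusted p of 0.05, and DESeq2 called 0.227% of genes and 0 members. The median of the members was 0.42 on the log2 scale, against -0.045 for all genes. Cx3cr1 had the largest value, with 44077 ± 7186 normalised counts in Q175;Tyrobp-KO and 27563 ± 15117 in Q175 (SD, n = 5 each), a log2 fold change of 0.68 (95% interval -0.086 to 1.44, adjusted p = 0.533).

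Slc2a5 was the member with the smallest p here. It counted 4041, 4793, 4388, 5769 and 5288 in the double mutants and 4768, 2044, 3993, 2715 and 3804 in Q175, in the replicate order given above. All but 2 of the 25 pairs of libraries were higher in the double mutant, and the ranges overlapped through Q175 replicate 3. The log2 fold change was 0.49 (95% interval 0.022 to 0.95, unadjusted p = 0.0414, adjusted p = 0.533). Sparc (0.49), Selplg (0.43), Crybb1 (0.42), Olfml3 (0.31), Tmem119 (0.25) and Fcrls (0.13) had intervals that included 0, and Aif1 was at -0.020. No member separated the groups, as 0.864% of all genes did.

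Q175 replicate 4 moved this value most. Without it the members' median was 0.20, without Q175 replicate 14 it was 0.39 and without Q175;Tyrobp-KO replicate 13 it was 0.29. Without the 4 libraries of lowest TMM factor, which include both of these Q175 libraries, it was 0.10, with Cx3cr1 at 0.25 and Slc2a5 at 0.23. Scaled to the other homeostatic genes, which shifts the median of all genes to -0.37, the members' median was 0.11, and Aif1 (-0.37, adjusted p = 0.265 by edgeR), Fcrls (-0.13) and Tmem119 (-0.018) were below 0. For 7 of the 9 members the coefficient of variation was lowest in the double mutants, for Cx3cr1 16.3% against 54.8% in Q175, 59.0% in WT and 46.6% in Tyrobp-KO. The exceptions were Crybb1, which varied most there (31.0%, against 19.7% in WT), and Aif1, which varied least in Tyrobp-KO (7.89%). None of the 4 libraries of lowest TMM factor is a double mutant, and the factors of the double mutants ran from 0.973 to 1.12. The difference in spread was not tested, and no coefficient of variation was computed without those 4 libraries.

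In mice without the Q175 allele (Tyrobp-KO against WT), all 9 members had higher means in the 3 Tyrobp-KO libraries than in the 5 WT libraries, and none passed the test. edgeR called 4 of 18017 genes (0.0222%), 6.82% were under an unadjusted p of 0.05, and DESeq2 called 0.932% of genes and 0 members. The members' median was 0.41, against 0.017 for all genes. Tmem119 had a log2 fold change of 0.67 (95% interval -0.34 to 1.67), Selplg 0.63 (-0.37 to 1.62) and Cx3cr1 0.16 (-0.98 to 1.31).

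Crybb1 had the largest value of any member in any comparison. It counted 793, 1081, 1146, 1402 and 1205 in WT and 2367, 2255 and 1336 in Tyrobp-KO, so that Tyrobp-KO replicates 15 and 19 were above all WT libraries and replicate 20 was below WT replicate 7. Its log2 fold change was 0.90 (95% interval 0.34 to 1.45), with an unadjusted p of 0.00451 and an adjusted p of 0.565 in edgeR. DESeq2 gave 0.88 with an adjusted p of 0.13, and without the 4 libraries of lowest TMM factor, 1 of them in each of these genotypes, edgeR gave 1.12 with an adjusted p of 0.194. Crybb1 stayed between 0.63 and 1.12 under the 16 alternatives, and its adjusted p between 0.130 and 0.991. No member separated the 2 genotypes, as 4.48% of all genes did.

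The members' median in Tyrobp-KO against WT depended on single libraries. It was 0.63 without Tyrobp-KO replicate 20 and 0.22 without Tyrobp-KO replicate 19. Without the 4 libraries of lowest TMM factor it was 0.47. Scaled to the other homeostatic genes, which moves the median of all genes to -0.19, it was 0.14, with Cx3cr1 and Aif1 below 0. This comparison and Q175 against WT share the WT libraries, and Q175 against WT and Q175;Tyrobp-KO against Q175 share the Q175 libraries.

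The Q175 allele on the Tyrobp-null background (Q175;Tyrobp-KO against Tyrobp-KO) gave member values on either side of 0, and none passed the test. edgeR called 0 of 17723 genes (0.0%), though 13.2% were under an unadjusted p of 0.05, and DESeq2 called 3.84% of genes and 0 members. The median of the members was -0.10 and that of all genes -0.012, with 7 of 9 members lower in the double mutant. The median turned on single libraries of the 3 Tyrobp-KO mice: it was -0.32 without Tyrobp-KO replicate 20, with 1 member higher and the rest lower, and 0.10 without Tyrobp-KO replicate 19, with 5 higher. Of the 4 libraries of lowest TMM factor only Tyrobp-KO replicate 20 is in this comparison, so leaving them out also gave -0.32. Cx3cr1 was highest at 0.34 (95% interval -0.37 to 1.06) and Crybb1 was at -0.36 (-0.94 to 0.23).

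Aif1 separated these groups, and no other combination of a member and 1 of the 4 comparisons did. It counted 2244, 2098 and 2453 in Tyrobp-KO and 1231, 2001, 1833, 1829 and 1839 in Q175;Tyrobp-KO, and all 15 pairs of libraries were lower in the double mutant. Such separation occurred in 9.98% of all genes in this comparison. The log2 fold change of Aif1 was -0.40 (95% interval -0.74 to -0.052, unadjusted p = 0.0284, adjusted p = 0.327), and its adjusted p ranged from 0.174 to 0.754 over the alternatives. In the other comparisons Aif1 averaged 2152 ± 552 in WT and 1769 ± 338 in Q175 (SD, n = 5 each), a log2 difference of -0.25 (95% interval -0.71 to 0.21).

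**Figure D5:**
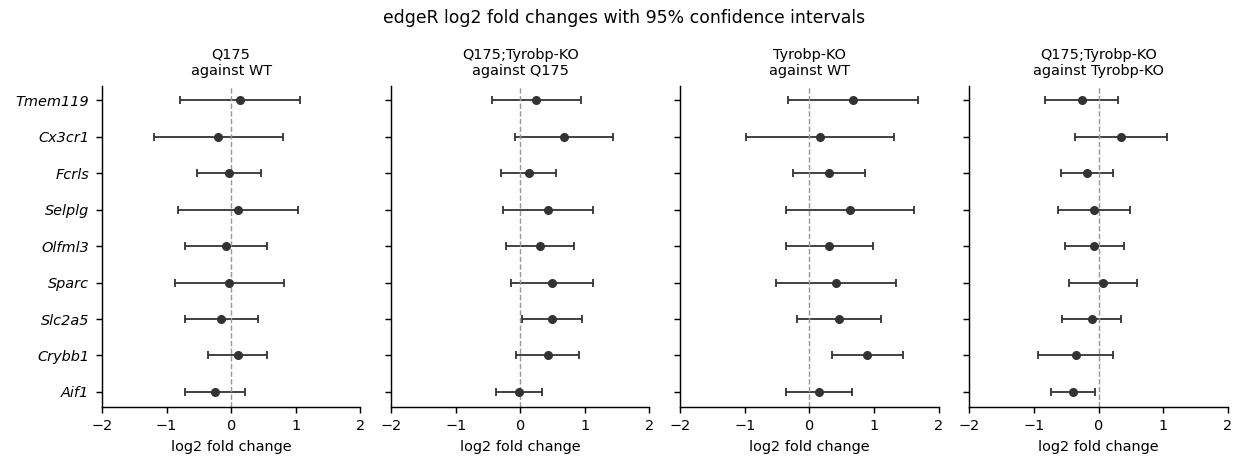
edgeR log2 fold change of each member with its 95% confidence interval in 4 genotype comparisons. The intervals include 0 except for Slc2a5 in Q175;Tyrobp-KO against Q175, Crybb1 in Tyrobp-KO against WT and Aif1 in Q175;Tyrobp-KO against Tyrobp-KO, and no adjusted p was under 0.1.

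The interaction, which asks whether the effect of the Q175 allele differed with and without Tyrobp, was fitted over all 18 libraries. It called 0 of 18613 genes (0.0%) and 0 members in edgeR, with 6.01% of genes under an unadjusted p of 0.05, and DESeq2 called 0.0107% of genes and 0 members. Member values ran from -0.40 (Crybb1, 95% interval -1.11 to 0.32) to 0.59 (Cx3cr1, 95% interval -0.76 to 1.95), with a median of -0.092 beside 0.038 for all genes. Intervals of this width do not show that the Q175 allele acted alike on both backgrounds. Without the 4 libraries of lowest TMM factor the median was -0.37 and all 9 values were below 0.

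No member passed the test between female and male mice. In a fit with genotype, female against male log2 differences of the members lay between -0.16 (Cx3cr1, 95% interval -0.87 to 0.55) and 0.14 (Selplg, 95% interval -0.52 to 0.79), with 0.043% of 18613 genes called and 0 members.

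Other genes of the homeostatic and disease-associated states give the setting of these values. None of the 22 other homeostatic genes passed the test in any of the 4 comparisons or in the interaction. Their medians were -0.24 in Q175 against WT, 0.40 in Q175;Tyrobp-KO against Q175, 0.14 in Tyrobp-KO against WT and -0.044 in Q175;Tyrobp-KO against Tyrobp-KO. With 1 library left out in turn these medians ranged from -0.32 to -0.16, from 0.26 to 0.48, from 0.019 (without Tyrobp-KO replicate 19) to 0.27 (without Tyrobp-KO replicate 20), and from -0.27 (without Tyrobp-KO replicate 20) to 0.083 (without Tyrobp-KO replicate 19). The largest values were those of Ecscr, a surface protein named after endothelial cells, in Q175 against WT (-0.52), Itgam in Q175;Tyrobp-KO against Q175 (0.69), Gpr165, an orphan receptor, in Tyrobp-KO against WT (0.92) and Gpr34 in Q175;Tyrobp-KO against Tyrobp-KO (-0.65), with adjusted p from 0.291 to 0.593. DESeq2 called 3 of the 22 in the last comparison, all lower, beside 3.84% of all genes, and 0 in the others.

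The disease-associated genes stood apart from the members where Tyrobp was deleted. Their list was drawn up with earlier results of these data known, so this contrast is a description and not an independent result. In Tyrobp-KO against WT, edgeR called 2 of 20, both lower, beside 0.0222% of all genes. Spp1, which encodes osteopontin, fell from 1093 ± 472 to 10.7 ± 1.65 normalised counts (log2 fold change -6.58, adjusted p = 0.00406 by edgeR). Clec7a, the beta-glucan receptor Dectin-1, fell from 1538 ± 438 to 260 ± 45.5 (-2.50, adjusted p = 0.0213 by edgeR). The paper had named both among the genes lower in Q175;Tyrobp-KO than in Q175 microglia. The median of the 20 was -1.34 there, where 17 of 20 were lower and DESeq2 called 9, beside 0.932% of all genes. It was -1.24 in Q175;Tyrobp-KO against Q175, where 18 of 20 were lower. In that comparison edgeR called 0 of the 20 and DESeq2 called 10, beside 0.227% of all genes by DESeq2. Ch25h, which makes 25-hydroxycholesterol, averaged 133 ± 79.2 counts in WT and 5.29 ± 3.84 in Tyrobp-KO, and its log2 fold change of -4.57 had an adjusted p of 0.565. The same 2 comparisons gave the members medians of 0.41 and 0.42, with 0 called. In Q175 against WT the median of the 20 genes was -0.25 and 0 were called. In Q175;Tyrobp-KO against Tyrobp-KO, 18 of them were tested, the median was -0.38 and 14 were lower. There edgeR called 0 and DESeq2 called 3, all lower, beside 3.84% of all genes by DESeq2.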

How the data were processed

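The authors sorted CD11b-positive striatal cells with magnetic beads from 1 mouse per library (the labels name RNA of a pair of striata, the methods 1 striatum), amplified RNA with a SMART-Seq v4 kit, made non-directional libraries, aligned reads to GRCm38 with STAR 2.5 and deposited raw counts per gene from featureCounts, with no normalisation. The labels' processing notes name GRCh38, but all 55536 gene identifiers matched GENCODE M21 of the mouse. Of the columns, 2 named no labelled sample and were not used. Libraries held 11260410 to 29771983 reads, and the number of libraries limits the precision. The methods describe dissociation by mouse and magnetic isolation by sample, and p-values measure the spread between these samples.

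Each comparison was fitted on its own 2 groups in edgeR 4.0.16 with TMM factors, the quasi-likelihood test and Benjamini-Hochberg adjustment at an adjusted p of 0.1, over genes that reached 1 CPM in 1 library or more of the groups fitted. The interaction and sex were fitted over all 18 libraries. Log2 values used normalised counts plus 1. The test was checked on simulated counts drawn for each gene on its own. That check does not cover genes that vary together between libraries, as most members did. Alternatives were DESeq2 1.42.0, its size factors, scaling to 22 other homeostatic genes, no filter, a sex term, a term for astrocyte, neuronal and oligodendrocyte markers, 1 fit over all groups and leaving out each library. Leaving out the 4 libraries of lowest TMM factor was added after seeing the data. All 9 members were named. From the other homeostatic and disease-associated lists, genes were named if called or, up to 3 per comparison, by size of change, and P2ry12, Cst3, Csf1r and Vsir were named after their values were seen. The 5 most similar genes were chosen by Pearson's r among genes with a mean of at least 100 counts. The members and lists were chosen with earlier results of these data known.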

Additional observations from a re-analysis of the deposited data

Results flagged for a closer look

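Aif1 in Q175;Tyrobp-KO replicate 5 counted 1231 normalised reads, while the other 4 double-mutant libraries counted 1829 to 2001. Its gap to the nearest library was 0.776 of the range of the group, above the critical value of 0.71 for 5 samples. It was the 1 such case among 27 combinations of a member and a group of 5, and chance gives about 1 in 20. Without this library the log2 fold change of Aif1 in Q175;Tyrobp-KO against Tyrobp-KO was -0.30, with an adjusted p of 0.324 by edgeR.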

How the results depend on the processing

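No member passed the adjusted p of 0.1 in any of the 4 comparisons or in the interaction under any alternative, and the lowest adjusted p of any member was 0.13 (Crybb1, Tyrobp-KO against WT, DESeq2). Of 837 member values under alternatives, 747 kept their direction and 90 did not, 54 of them with 1 library left out. No paired analysis was possible because the genotypes share no replicate number. Depth does not limit these genes, but 3 to 5 libraries per genotype leave wide intervals. The cause of the changes of direction was not tested. Over all alternatives the members' median ranged from -0.18 to 0.11 in Q175 against WT, 0.10 to 0.52 in Q175;Tyrobp-KO against Q175, 0.14 to 0.63 in Tyrobp-KO against WT, -0.32 to 0.10 in Q175;Tyrobp-KO against Tyrobp-KO and -0.37 to 0.088 in the interaction.

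Scaling to other homeostatic genes moved the median of all genes to 0.19 in Q175 against WT, beside 0.11 for the members. There it gave log2 fold changes of 0.13 for Fcrls, 0.059 for Olfml3, 0.11 for Sparc and 0.0074 for Slc2a5. In Q175;Tyrobp-KO against Q175 (all genes -0.37) it gave -0.018 for Tmem119 and -0.13 for Fcrls. In Q175;Tyrobp-KO against Tyrobp-KO (all genes 0.060) it gave 0.061 for Selplg, 0.060 for Olfml3 and 0.020 for Slc2a5. In Tyrobp-KO against WT (all genes -0.19) it gave -0.13 for Cx3cr1 and -0.053 for Aif1. With sex as a term, Q175 against WT gave -0.13 for Tmem119, -0.12 for Selplg and -0.093 for Crybb1. With the score of markers of other cells in the fit, it gave -0.13 for Tmem119, 0.42 for Cx3cr1, 0.055 for Fcrls, 0.068 for Olfml3, 0.062 for Sparc, 0.055 for Slc2a5 and -0.094 for Crybb1, and the interaction gave -0.020 for Olfml3 and -0.039 for Slc2a5. With no filter on low counts the interaction of Olfml3 was -0.0063. Without the 4 libraries of lowest TMM factor, Q175 against WT gave 0.046 for Cx3cr1, 0.13 for Fcrls, 0.077 for Olfml3 and 0.11 for Sparc, Q175;Tyrobp-KO against Q175 gave -0.017 for Tmem119, -0.081 for Fcrls and 0.026 for Aif1, Q175;Tyrobp-KO against Tyrobp-KO gave -0.17 for Sparc, and the interaction gave -0.069 for Cx3cr1, -0.37 for Olfml3, -0.30 for Sparc and -0.34 for Slc2a5.

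With each library left out in turn, Q175 against WT ranged from -0.11 to 0.37 for Tmem119, -0.084 to 0.36 for Selplg, -0.049 to 0.22 for Crybb1, -0.18 to 0.089 for Fcrls, -0.23 to 0.093 for Olfml3, -0.21 to 0.19 for Sparc and -0.42 to 0.084 for Cx3cr1. Aif1 in Q175;Tyrobp-KO against Q175 ranged from -0.083 to 0.081 and Cx3cr1 in Tyrobp-KO against WT from -0.14 to 0.48. Q175;Tyrobp-KO against Tyrobp-KO ranged from -0.32 to 0.16 for Selplg, -0.28 to 0.10 for Olfml3, -0.32 to 0.14 for Slc2a5 and -0.17 to 0.38 for Sparc. The interaction ranged from -0.42 to 0.088 for Selplg, -0.17 to 0.22 for Olfml3, -0.13 to 0.44 for Sparc, -0.14 to 0.33 for Slc2a5, -0.20 to 0.021 for Aif1 and -0.31 to 0.030 for Fcrls.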
